A study of Mus musculus with 21 samples.

Results

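The genes followed here are the small leucine-rich proteoglycans Dcn (decorin), Bgn (biglycan), Aspn (asporin), Fmod (fibromodulin), Lum (lumican), Prelp, Omd (osteomodulin) and Ogn (osteoglycin, also called mimecan), together with Dpt (dermatopontin). They were taken as the probe sets whose platform gene symbol is 1 of these names, which gave 20 of 45101 probe sets, for 9 of the 18193 genes with a probe set of their own. All 20 probe sets and all 9 genes passed the filter on dim signals, among 14338 genes that did. A member that is bright only at late stages passed through those stages.

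CD-1 mice, which are outbred and here wild type, gave whole testes that were measured on Affymetrix oligonucleotide arrays with 1 array per RNA sample. Gestation day (gd) 11 had 5 arrays, each a pool of 2, gd12 had 3 arrays, each a pool of 5, and gd14, gd16, gd18 and postnatal day (pnd) 2 had 3 arrays each, with no pooling named. These stages run from the gonad at the onset of testis formation to the testis just after birth, Theiler stages 18, 20, 22, 24, 26 and 27. A single reference array pooled 8 whole animals of pnd 0.5 (4 male, 4 female). The series' design text differs from the sample labels in that it gives 3 samples a stage, each from 1 animal, so the spread at gd11 and gd12 may be that between pools. P-values measure the spread between these samples.

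Levels below are scanner intensities in arbitrary units, and a level below 71.6 is called near background. Changes are differences of log2(intensity + 22.4), given with the standard error of the limma fit, and understate the change of dim genes. "Rose" and "fell" are used where the adjusted p was below 0.05. Levels of different probe sets have no common scale and are not set against each other. In whole tissue, more cells of a type and more RNA per cell cannot be told apart.

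Small leucine-rich proteoglycans are secreted proteins with a curved core of leucine-rich repeats. Most carry chains of chondroitin or dermatan sulfate, or of keratan sulfate, and they bind collagen fibrils and restrain their sideways growth. Several also hold growth factors of the transforming growth factor beta (TGF-beta) and bone morphogenetic protein families in the matrix. Dermatopontin is a small tyrosine-rich matrix protein of another family that binds decorin and speeds the assembly of collagen fibrils. In the testis, decorin and biglycan are known products of the peritubular cells that wrap the seminiferous cords.

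Promoter windows were taken from RefSeq, build GRCm38.p6, and run from 250 bases before to 50 bases after the gene's listed start, 300 bases in all. Of the 9 members 7 had such a window, and Dcn and Lum were named only. Of the 3 windows below, those of Dpt and Omd hold the longest run of letters shared by any pair of members. That of Ogn is shown because it holds part of this run. All 9 members rose from gd11 to pnd2, so a rise does not set these 3 genes apart. Capitals mark the shared run, which is 15 bases long in Dpt and Omd and of which Ogn holds the first 9 bases.
Dpt, chr1:164796413-164796712, plus strand: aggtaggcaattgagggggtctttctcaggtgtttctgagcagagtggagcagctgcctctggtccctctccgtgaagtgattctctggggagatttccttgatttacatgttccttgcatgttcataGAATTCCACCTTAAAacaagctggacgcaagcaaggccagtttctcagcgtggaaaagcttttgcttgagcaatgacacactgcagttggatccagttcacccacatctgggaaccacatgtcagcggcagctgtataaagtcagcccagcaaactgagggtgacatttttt
Omd, chr13:49582212-49582511, plus strand: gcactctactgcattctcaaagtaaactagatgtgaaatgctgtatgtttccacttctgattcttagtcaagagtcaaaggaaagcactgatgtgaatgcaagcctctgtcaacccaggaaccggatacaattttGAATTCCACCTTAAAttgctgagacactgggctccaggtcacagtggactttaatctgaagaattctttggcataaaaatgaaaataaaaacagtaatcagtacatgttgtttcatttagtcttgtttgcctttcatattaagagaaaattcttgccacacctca
Ogn, chr13:49607765-49608064, plus strand: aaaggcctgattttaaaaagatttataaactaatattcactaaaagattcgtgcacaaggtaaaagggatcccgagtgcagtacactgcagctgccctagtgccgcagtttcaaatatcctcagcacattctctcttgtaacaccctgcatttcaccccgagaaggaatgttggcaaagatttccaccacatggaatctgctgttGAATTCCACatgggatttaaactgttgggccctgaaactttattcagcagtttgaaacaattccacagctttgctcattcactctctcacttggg
The run GAATTCCACCTTAAA, searched on both strands, occurred in 2 of 32851 windows (0.00609%), those of Dpt and Omd, and begins 122 bases before the start of Dpt and 115 before that of Omd. The shorter run GAATTCCAC, which lies inside it, occurred in 60 windows (0.183%) of 59 genes and begins 45 bases before the start of Ogn. Both runs were chosen after the sequences were seen, so their presence in these members was fixed by the choice. The other 27 kept genes with the shorter run had a median log2 change of 0.12 from gd11 to pnd2. Of these, 6 rose and 5 fell, where 24.2% of all genes rose and 24.4% fell. The TATA-like letters TATAAA were found in the windows of Aspn, Ogn and Dpt and in 13.6% of all windows. In Dpt they lie inside the stretch after the listed start. A match of letters is a description of the window, not a site.

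Each of the 20 testis arrays had a mean of 500 after trimming. Correlations over all probe sets were 0.934 to 0.972 between gd11 arrays and 0.965 to 0.979 within later stages, and no arrays were identical. The testis label held: 9 of 10 Sertoli cell markers rose from gd11 to gd12, where 11.2% of all genes did. At gd11, arrays 16 and 17 stood apart, with summed neural marker intensities of 73011 and 43542 over 9 markers, against 4186 to 9163 on the other 3 arrays of that stage and at most 3968 later. Without these arrays all 9 members were still called from gd11 to pnd2.

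From gd11 to pnd2 all 9 members rose, where 24.2% of the 14338 genes did. Their median log2 change was 2.30, against -0.03 over all genes. The range was wide: Dpt, Ogn and Aspn rose by 7.01, 6.42 and 4.96 on the log2 scale, while Fmod rose by 1.12. The array ranges of gd11 and pnd2 did not overlap for 8 of the 9, the exception being Fmod, and 44.6% of all genes had ranges that did not overlap in this comparison. Without arrays 16 and 17 of gd11 all 9 still rose, with changes from 1.49 (Lum) to 7.17 (Dpt).

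**Figure D1:**
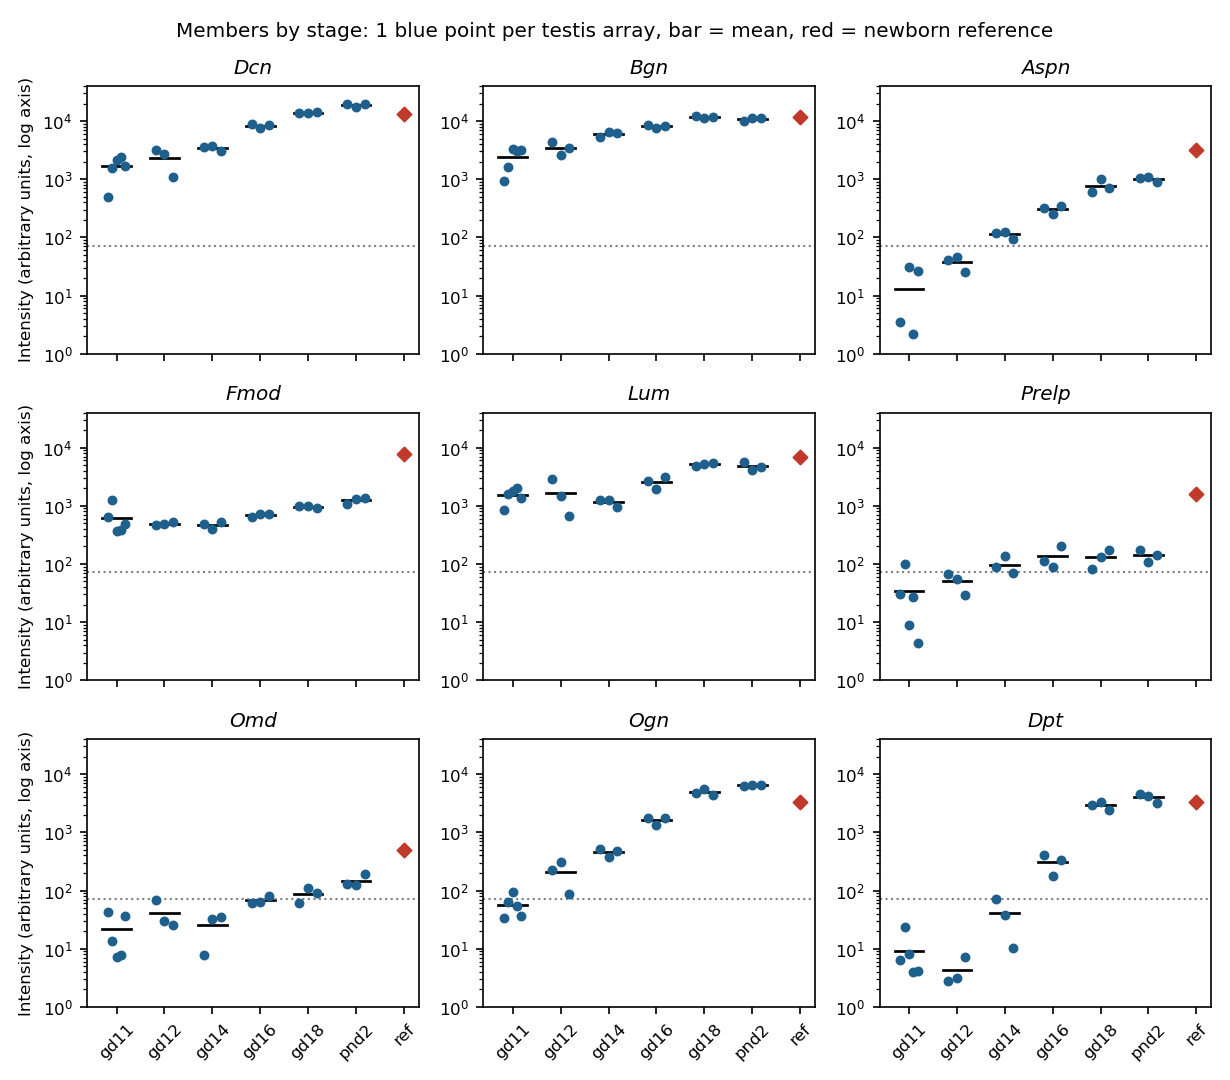
Intensity (arbitrary units, log axis) of the 9 members on each of the 20 testis arrays by stage (blue points), with the stage mean (bar), and on the newborn reference array (red diamond). The dotted line is the near-background level of 71.6. Dpt, Ogn and Aspn climb from near background, whereas Dcn, Bgn, Lum and Fmod were above it at every stage.

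Decorin (Dcn, chr10:97479500-97518163) is the prototype of the family and carries a single chondroitin or dermatan sulfate chain. Its levels were 498, 1553, 2178, 2377 and 1670 at gd11 (arrays 16 to 20), 3117, 2673 and 1104 at gd12, and 3553, 3663 and 3082 at gd14. They were 8924, 7488 and 8655 at gd16, 13773, 13504 and 14452 at gd18, and 19391, 17688 and 19756 at pnd2. From gd14 on the ranges of successive stages did not overlap, and the low readings were those of gd11 array 16 and gd12 array 15. The log2 change from gd11 to pnd2 was 3.67 ± 0.359 (adjusted p = 9.67e-08). Between neighbouring stages Dcn passed the threshold in 1 step, gd14 to gd16 (1.28 ± 0.402, adjusted p = 0.0484). That call was lost under 11 of 17 other settings, among them leaving out any 1 of the 6 arrays of gd14 and gd16 (adjusted p from 0.0761 to 0.14). A second Dcn probe set was dim, with stage means of 25.2 to 94.6, and gave a change of 0.40 from gd11 to pnd2 (adjusted p = 0.526).

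Biglycan (Bgn, chrX:73483601-73495936) is the closest relative of decorin and usually carries a pair of chains. It read 937, 1634, 3300, 2994 and 3160 at gd11, 4287, 2602 and 3434 at gd12, and 5317, 6530 and 6267 at gd14. Its later levels were 8599, 7467 and 8122 at gd16, 12306, 11168 and 11795 at gd18, and 10033, 11121 and 11213 at pnd2. The gd18 and pnd2 readings overlapped, and gd11 arrays 16 and 17 were the lowest of all. Bgn rose by 2.30 ± 0.285 from gd11 to pnd2 (adjusted p = 2.01e-06), or by 1.77 without those arrays. Its order of levels was gd18, pnd2, gd16, gd14, gd12, gd11, and no neighbours in that order differed at the threshold. From gd14 to gd18 it rose by 0.96 ± 0.318 (adjusted p = 0.0313), a call lost when any 1 of those 6 arrays was left out (0.0538 to 0.108). The other 2 Bgn probe sets rose by 2.82 and 2.30 from gd11 to pnd2. When every probe set was tested, both also rose from gd12 to gd14 (adjusted p = 0.0418 and 0.0164), where the brightest had 0.0821. From gd11 to gd12 the first of them rose by 1.08 (adjusted p = 0.00608). The second had 0.0503 in that step and the brightest 0.126.

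Asporin (Aspn, chr13:49544443-49567565), named for a stretch of aspartates, has no glycosaminoglycan attachment site and binds collagen and TGF-beta. At gd11 it was at background with readings of 3.49, 0.69, 31.3, 2.17 and 26.4, at gd12 it read 40.5, 46.0 and 25.6, and at gd14 119, 126 and 92.8. It then read 318, 248 and 340 at gd16, 597, 1000 and 703 at gd18, and 1053, 1071 and 881 at pnd2. The ranges did not overlap between successive stages from gd12 to gd18. Aspn rose by 4.96 ± 0.27 from gd11 to pnd2 (adjusted p = 2.98e-11). It rose in each of the first 4 steps, by 0.85, 1.18, 1.26 and 1.26, with adjusted p of 0.0316, 0.00991, 0.0132 and 0.021. The second call held when any 1 of the 6 arrays of gd12 and gd14 was left out. The first was lost without array 16, 17 or 19 of gd11 or 13 or 14 of gd12 (0.0566 to 0.118), the third without gd14 array 12 or gd16 array 7 or 9 (0.0542 to 0.0673), and the fourth without gd16 array 7 or 8 or gd18 array 5 (0.0552 to 0.117). With a pseudocount of 1 the last 3 of these calls were lost (0.167 to 0.416). A second Aspn probe set rose by 4.84 over the whole period and from gd12 to gd14 and gd14 to gd16 (adjusted p = 0.000339 and 0.0159), and it was not called in the first step (0.372) or the fourth (0.0586).

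Fibromodulin (Fmod, chr1:134037254-134048280) carries keratan sulfate and binds collagen at a site other than decorin's. Its brightest probe set read 640, 1232, 374, 385 and 478 at gd11, 472, 478 and 534 at gd12, and 477, 402 and 532 at gd14. It read 632, 723 and 724 at gd16, 977, 1010 and 923 at gd18, and 1082, 1304 and 1365 at pnd2. Every array from gd16 on lay above all arrays of gd12 and gd14, and gd11 array 17 lay within the pnd2 range. The rise from gd11 to pnd2 was 1.12 ± 0.252 (adjusted p = 0.00114), and 1.40 without array 17. From gd14 to gd18 Fmod rose by 1.02 ± 0.282 (adjusted p = 0.0118), although no single step of a stage passed with this probe set. Of its 6 probe sets 4 rose from gd11 to pnd2, and the 6 changes ranged from 0.51 to 1.29. When every probe set was tested, another one rose from gd16 to gd18 (0.89, adjusted p = 0.0311). From gd14 to gd16 the brightest changed by 0.545 and the others by -0.23 to 0.28.

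Lumican (Lum, chr10:97565501-97572703), a keratan sulfate proteoglycan best known from the cornea, had the lowest mean of any stage at gd14. It read 848, 1584, 1764, 2006 and 1381 at gd11, 2869, 1453 and 666 at gd12, and 1272, 1254 and 942 at gd14. Later it read 2653, 1961 and 3126 at gd16, 4852, 5321 and 5526 at gd18, and 5718, 4174 and 4630 at pnd2. The first 3 stages overlapped one another, and gd12 array 15 was again low. Lum rose by 1.13 ± 0.356 from gd14 to gd16 (adjusted p = 0.0491) and by 1.70 ± 0.319 from gd11 to pnd2 (adjusted p = 0.000206). The gd14 to gd16 call was lost under 10 of 17 other settings, among them leaving out gd14 array 10, 11 or 12 or gd16 array 7 or 9 (0.0887 to 0.188). Over gd14 to gd18 the change was 2.17 ± 0.356 (adjusted p = 0.000229).

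Prelp (chr1:133910304-133930102), whose basic end binds heparin and which links basement membranes to collagen, stayed dim. It read 30.5, 98.0, 8.93, 27.0 and 4.33 at gd11, 66.3, 55.2 and 29.4 at gd12, and 87.2, 135 and 68.8 at gd14. It read 111, 89.2 and 206 at gd16, 83.0, 134 and 172 at gd18, and 174, 110 and 141 at pnd2. The stages from gd14 to pnd2 overlapped, and gd11 array 17 was well above its 4 companions. Prelp rose by 1.75 ± 0.396 from gd11 to pnd2 (adjusted p = 0.00121) and passed in no single step. Its second probe set, near background to gd18, rose by 1.38.

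Osteomodulin (Omd, chr13:49582462-49592612), a keratan sulfate proteoglycan known from bone, was near background until gd16. Its readings were 42.9, 13.6, 7.26, 7.65 and 36.6 at gd11, 67.9, 30.4 and 25.9 at gd12, and 7.85, 32.4 and 35.6 at gd14. They were 60.5, 64.5 and 79.8 at gd16, 61.5, 109 and 89.7 at gd18, and 130, 122 and 190 at pnd2. The pnd2 arrays lay above every earlier array. Omd rose by 2.01 ± 0.33 from gd11 to pnd2 (adjusted p = 5.29e-05) and by 1.23 ± 0.369 from gd14 to gd18 (adjusted p = 0.019). The second of these was lost without gd14 array 10 or gd18 array 5 (0.11 and 0.0761).

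Osteoglycin (Ogn, chr13:49608015-49624501) is a shorter family member with fewer repeats, also called mimecan, and regulates collagen fibrils. Its levels were 34.1, 62.4, 93.0, 55.2 and 36.2 at gd11, 227, 310 and 85.8 at gd12, and 519, 372 and 477 at gd14. They were 1765, 1350 and 1736 at gd16, 4767, 5453 and 4389 at gd18, and 6300, 6626 and 6460 at pnd2. From gd14 on no stage overlapped the one before it, and gd12 array 15 fell inside the gd11 range. Ogn rose by 6.42 ± 0.27 from gd11 to pnd2 (adjusted p = 8.75e-13). The 4 steps to gd18 were 1.45, 1.19, 1.78 and 1.58, all past the threshold, with adjusted p of 0.000824, 0.00952, 0.00134 and 0.00488. The call from gd12 to gd14 was lost without gd12 array 15 (adjusted p = 0.0508) and with the 2 stages fitted alone (0.0515). A second Ogn probe set rose by 6.31 over the whole period and missed the threshold from gd12 to gd14 (adjusted p = 0.0693).

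Dermatopontin (Dpt, chr1:164796663-164824274) went from background to a strong signal late in gestation. It read 6.38, 23.7, 8.13, 4.00 and 4.14 at gd11, 2.76, 3.11 and 7.16 at gd12, and 72.4, 38.2 and 10.3 at gd14. It then read 415, 179 and 335 at gd16, 2961, 3306 and 2460 at gd18, and 4643, 4142 and 3255 at pnd2. The gd16 and gd18 arrays were widely apart, and gd18 and pnd2 overlapped. Dpt rose by 2.46 ± 0.329 from gd14 to gd16 (adjusted p = 0.000239) and by 3.21 ± 0.329 from gd16 to gd18 (adjusted p = 3.12e-05). Only 5 of the 14338 genes (0.0349%) rose by at least 4-fold, a log2 change of 2, in the step to gd18. The smaller rise from gd12 to gd14 (1.10 ± 0.329, adjusted p = 0.0246) is between levels near background, and was lost without gd12 array 13 or 14 or gd14 array 10 or 11 (0.0636 to 0.152). Over the whole period the change was 7.01 ± 0.294 (adjusted p = 8.75e-13).

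Step by step, by the probe set that stood for each gene, members that passed the threshold rose and none fell. From gd11 to gd12 the risers were Aspn and Ogn, 2 of 9, where 11.2% of all genes rose, and from gd12 to gd14 they were Aspn, Ogn and Dpt, 3 of 9 against 11.4%. The second count was 5 without gd11 array 16. From gd14 to gd16 Dcn, Lum, Aspn, Ogn and Dpt rose, 5 of 9 against 5.39% of all genes. Leaving out array 12 of gd14 or array 7 or 9 of gd16 brought that count to 2. It was 3 without gd11 array 20, gd12 array 14, gd14 array 10 or 11, or any 1 array of gd18 or pnd2. Thus 13 of 20 fits with a single array left out gave 3 or fewer. From gd16 to gd18 Aspn, Ogn and Dpt rose, 3 of 9 against 1.7%, and 6 did so without gd11 arrays 16 and 17, as Bgn, Fmod and Lum were then also called. From gd18 to pnd2 limma called 0 members, none even at an unadjusted p below 0.05, where 2.54% of all genes rose and 5.26% fell. Array ranges of successive stages did not overlap for 0, 5, 8, 7 and 4 of the 9 members in the 5 steps, against 20.7%, 37.5%, 39.1%, 28.7% and 33.5% of all genes. The members' median log2 changes in the 5 steps were 0.55, 0.71, 1.13, 0.74 and 0.40, against medians over all genes between -0.06 and 0.05.

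**Figure D2:**
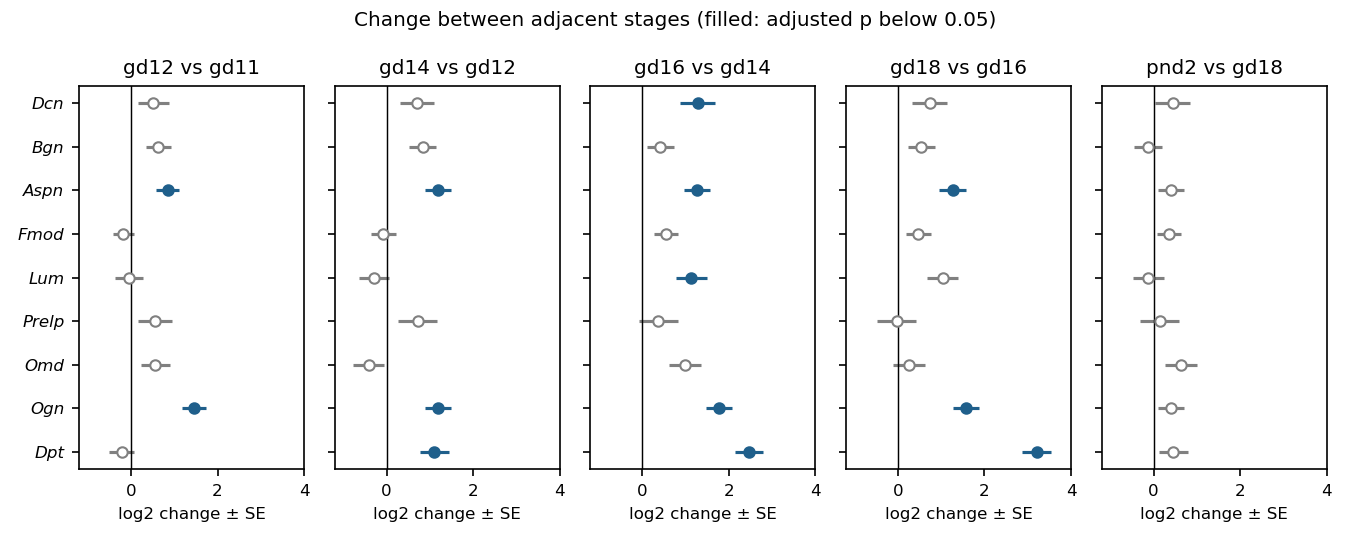
Log2 change (± SE) of each member between adjacent stages. Filled points have an adjusted p below 0.05. Dpt gains most from gd16 to gd18 (3.21), Ogn and Aspn are filled in each of the first 4 steps, and no point is filled from gd18 to pnd2.

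Across the 6 stages the F-test called all 9 members, and 68.3% of all genes. The highest stage was pnd2 for 7 members, a pattern that 12.9% of all genes showed with an F-test call, and gd18 for Bgn and Lum. For none of the 9 did limma call the highest stage different from the next highest (adjusted p of 0.317 to 0.892). Dcn, Aspn and Ogn had a higher mean at each later stage, as did 3.01% of all genes with a call. From gd14 to gd18, a comparison added after the data were seen, 8 of 9 members rose where 14% of all genes did. Prelp was the exception (0.34 ± 0.443, adjusted p = 0.62). Lum, and Fmod by its brightest probe set, had their lowest means at gd14, so a start there favours a rise for them. Over the 36 pairs of members, Pearson correlations of the 6 stage means ranged from 0.651 to 0.999 with a median of 0.922. These points share the same arrays and are a description.

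The members lie in 3 gene clusters, apart from Bgn and Dpt. Of the other family members in these clusters, Kera, Ecm2 and Optc had stage means near background throughout, and Epyc at gd16 only. The members Prelp and Omd were dim as well, with stage means of 33.8 to 142 and 21.6 to 147. On chromosome 10 the order is Dcn, Lum, Kera and Epyc. Kera (keratocan, a corneal proteoglycan) stayed below the filter with no testis array above 65.9. Epyc (epiphycan, a cartilage proteoglycan) had mean levels of 153 at gd11, 236 at gd12, 42.7 at gd16 and 106 at pnd2, and was called between none of the adjacent stages (adjusted p of 0.0815 to 0.74). Its change from gd12 to gd16, the stages of its highest and lowest mean, chosen after the levels were seen, was -2.01 ± 0.425, while Dcn and Lum went from 2298 to 8356 and from 1663 to 2580. On chromosome 13, Ecm2 lies beside Aspn, Omd and Ogn and stayed near background, with stage means of 19.4 to 44.3. On chromosome 1, Optc (opticin, of the vitreous of the eye) lies beside Prelp and Fmod and likewise stayed near background, at 16.5 to 63.8. Of the 10 other family members listed, 3 passed the filter (Epyc, Podn and Nyx). Of these 3, 0 were called by limma from gd11 to pnd2, with 0 at an unadjusted p below 0.05. Of all genes 24.2% rose and 24.4% fell in that comparison. Without gd11 arrays 16 and 17 the fit called 1 of the 3 family members, Epyc, as lower at pnd2 (-0.87, adjusted p = 0.014).

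**Figure D3:**
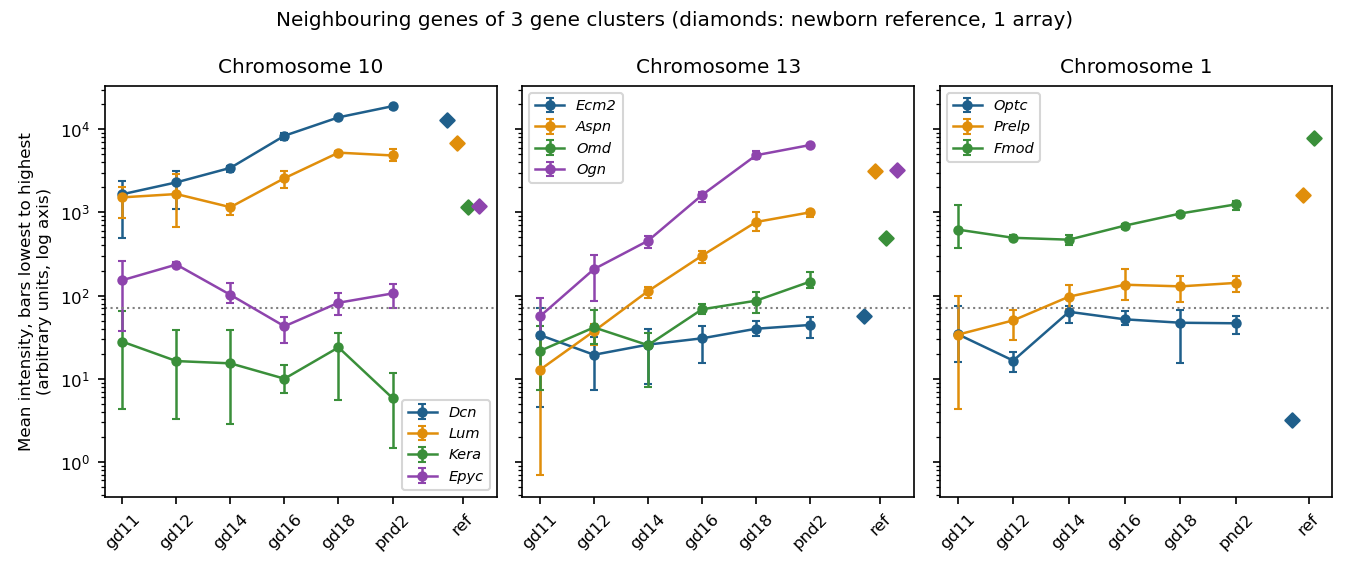
Mean intensity by stage (arbitrary units, log axis; bars run from the lowest to the highest array) of neighbouring family members in 3 gene clusters, with the newborn reference as diamonds. The dotted line is the near-background level of 71.6. Dcn and Lum climb while Epyc is lower at gd16 than at gd12, and Kera, Ecm2 and Optc stay near or below the line in the testis.

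The whole-newborn reference had 1 array, so its differences from the pnd2 testis have no test. Ogn read 3280 in the newborn against a pnd2 testis mean of 6462 ± 163 (SD, n = 3), 0.97 higher in testis on the log2 scale, and Dcn read 12986 against 18945 ± 1100, 0.54 higher. After quantile normalization of the 21 arrays together the Dcn difference was 0.89 and that of Ogn 1.08. Dpt read 3352 in the newborn against a pnd2 mean of 4013, a log2 difference of testis minus newborn of 0.24, and Bgn read 11810 against 10789, a difference of -0.13 that turned to 0.15 after quantile normalization. The other 5 were lower in the testis, with log2 differences of -3.34 for Prelp, -2.63 for Fmod, -1.63 for both Omd and Aspn and -0.50 for Lum. Newborn levels of Prelp (1619) and Fmod (7806) were 7.88 and 5.72 times the highest testis array. Of the 9 members 4 lay more than 1 log2 unit below the newborn (44.4%), against 17.3% of all genes. The neighbours Kera and Epyc read 1168 and 1199 in the newborn, at 17.7 and 4.63 times their highest testis array. Cartilage and bone markers (8 kept) summed to 31143 in the newborn and 1359 to 1678 at pnd2, and skeletal muscle markers (10 kept) to 181439 and 579 to 763, and their part in these differences was not tested.

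Among fibrillar collagens and their partners, the fibres that these proteoglycans coat, 15 of 23 kept genes rose and 3 fell from gd11 to pnd2. Their median was 1.35, and of all genes 24.2% rose and 24.4% fell. Eln (elastin) rose by 5.06 ± 0.318, Col6a1, a chain of the beaded microfibrils that bind decorin and biglycan, by 4.29 ± 0.249, and Tnxb, a tenascin that bridges collagen and decorin, by 3.95 ± 0.306. Of the main fibril chains Col1a1 rose by 2.10, Col1a2 by 1.35, Col5a1 by 1.24 and Col3a1 by 0.77. Without gd11 arrays 16 and 17, Col1a2 rose by 0.87 and Col3a1 by 0.49, both still called. Col3a1 and Col1a2 had pnd2 means of 31489 and 24841 where the brightest probe set of an array read 36069 to 50373. Col2a1, the cartilage collagen, fell by 4.83, from 2155 ± 2140 (SD, n = 5) at gd11 to 29.7 at pnd2, and by 3.76 without gd11 arrays 16 and 17. Summed cartilage and bone markers on these arrays were 6849 and 10428, against 2327 to 4548 on the other 3 of that stage. Of the processing enzymes 11 of 19 rose and 1 fell (3 without gd11 arrays 16 and 17), with a median of 0.75. Lox, which cross-links collagen and elastin, rose by 4.39 ± 0.246, and it also rose from gd14 to gd16 (1.13) and from gd16 to gd18 (1.23). Adamts5, a proteoglycan-cleaving protease, rose by 3.64, and Bmp1, which trims procollagens and the biglycan and osteoglycin precursors, by 0.75.

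The enzymes that build the sugar chains moved less and in both directions. For dermatan and chondroitin sulfate 8 of 24 kept genes rose and 3 fell from gd11 to pnd2, with a median of 0.02. Of all genes 24.2% rose and 24.4% fell in that comparison. Papss2, which makes the sulfate donor, rose by 1.95 and Csgalnact2, which starts the chondroitin chain, by 1.09. Chst11 and Chst15, chondroitin sulfotransferases, fell by 1.51 and 1.23. Dse, the epimerase that turns chondroitin into dermatan sulfate, fell by 0.75, and Chst14, the dermatan 4-O-sulfotransferase, differed by 0.45 (adjusted p = 0.056). For keratan sulfate 4 of 10 rose and 1 fell, with a median of 0.30. B4galt1, St3gal2 and Fut8 rose by 1.04, 1.03 and 1.02, and St3gal1 fell by 1.10. Xylt1, a xylosyltransferase that begins the chains, was not analysed here.

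Of the growth factors and receptors that these proteins bind, 12 of 26 rose and 6 fell, with a median of 0.33. Without gd11 arrays 16 and 17, 11 rose and 7 fell, and the median turned to -0.09. Cd44 (a matrix receptor), Ccn4 and Ccn2 (matricellular ligands) rose by 2.95, 2.58 and 2.43, and Bmp4 fell by 2.08. Of the TGF-beta ligands Tgfb3 rose by 0.90 (adjusted p = 0.0256), a call lost without gd11 arrays 16 and 17 (0.48, adjusted p = 0.158), whereas Tgfb1 and Tgfb2 had changes of 0.19 and 0.15 (adjusted p = 0.5 and 0.745). Of 23 other proteoglycans of the matrix and the cell surface 10 rose and 11 fell, with a median of 0.27. Bcan (brevican) rose by 5.58, Spock2 by 3.30 and Sdc4 (syndecan) by 2.96, and Gpc2 (glypican) fell by 2.65. Over all genes in this comparison 24.2% rose and 24.4% fell.

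**Figure D4:**
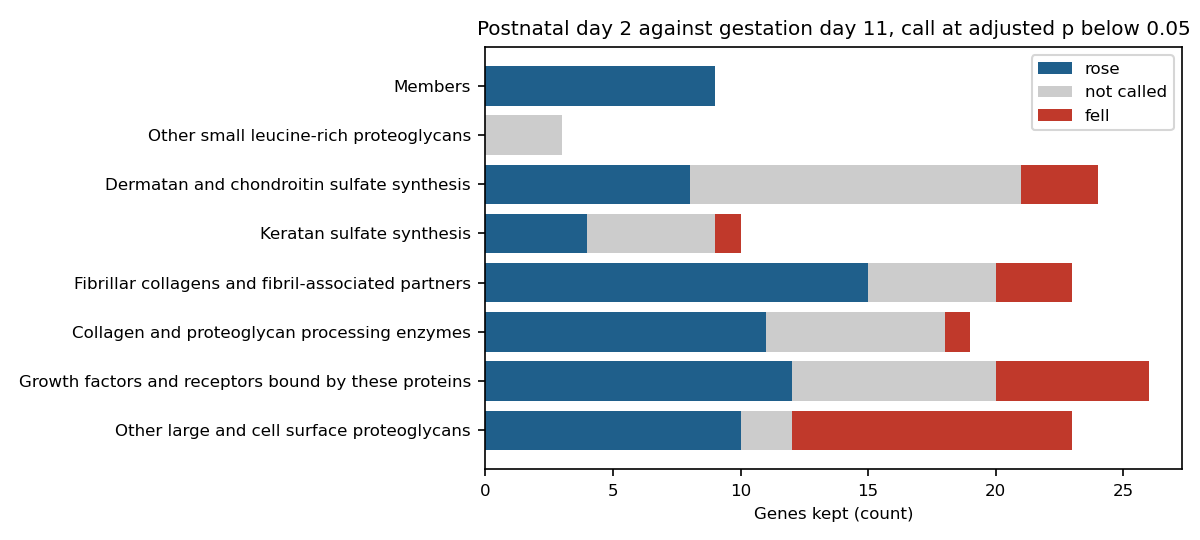
Number of kept genes of each list that rose (blue), fell (red) or were not called (grey) between gd11 and pnd2. All 9 members and 15 of 23 collagens and partners rose, whereas other proteoglycans split into 10 up and 11 down.

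Cell type markers moved over the same stages. Markers of peritubular myoid cells and smooth muscle (10 of 10 kept) summed to 2567 to 20651 at gd11, 4618 to 6973 at gd12, 15872 to 17152 at gd14, 21328 to 25806 at gd16, 28157 to 35174 at gd18 and 29391 to 44159 at pnd2. From gd11 to pnd2, 8 of these 10 rose and 0 fell, with a median of 2.25. Markers of interstitial and stromal progenitors (9 of 13 kept) summed to 18176 to 29844 at gd11, 29333 to 36991 at gd12 and 34691 to 37414 at gd14. Their sums were 39718 to 40986 at gd16, 38110 to 40732 at gd18 and 33591 to 35051 at pnd2. From gd11 to pnd2 6 of them rose and 1 fell, with a median of 0.93. Of the testis markers, 9 of 10 for Sertoli cells, 6 of 6 for fetal Leydig cells and 4 of 6 for germ cells rose over the same span, and 1 for germ cells fell. Of the markers of blood, vessels and nerve, 7 of 8 for erythroid cells fell, with a median of -2.99, as did 6 of 8 for endothelium and 7 of 9 for neural tissue. Markers of mesonephros and duct epithelium (8 of 10 kept) also declined, with 6 lower at pnd2, 0 higher and a median of -2.28. Their sums were 3414 to 12438 at gd11 and 1107 to 1986 at pnd2. The part of these cell types in the members' changes was not tested.

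The genes most like each member over the 6 stage means were found by Pearson correlation, as a description in which each gene's size of change plays no part. Dcn was most like Myh11 (smooth muscle myosin, r = 0.9994), Lgals8 (0.999) and Eln (0.9976). Ogn was most like Rmnd5b (0.9997), Naalad2 (0.9983) and S100a6 (0.998), and Aspn like Ecrg4 (0.9991), Casp12 (0.9984) and Rmnd5b (0.9982). For Bgn they were Reps2, Nupr1 and Scap (0.9992 to 0.9975), for Lum Dlk1, Serping1 and Osr1 (0.9962 to 0.9952), and for Fmod Asb2, Zfpm1 and Fndc5 (0.9966 to 0.9956). For Prelp they were Synm, Nlrx1 and Prss35 (0.9982 to 0.996), for Omd Gm15867, Sema6c and Cd200 (0.9954 to 0.991), and for Dpt Tmem219, Med15 and Plpp3 (0.9981 to 0.9978). Med15 shows how little such likeness says of size, since its stage means spanned 0.23 on the log2 scale and those of Dpt 7.23.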

How the data were processed

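RNA of whole CD-1 mouse testes at 6 stages (20 arrays) and of whole newborns (1 array) was measured on single-channel oligonucleotide arrays. The deposited values are intensities on a linear scale, 1 per probe set, made by the authors with GCOS (version not stated), as the submitters' processing notes name it. Gene names came from the platform table (34945 probe sets with 1 gene, 932 with several, 9160 with none and 64 controls), and 34741 of them matched the GRCm38.p6 gene table. Positions and neighbours of genes are from RefSeq, GRCm38.p6. No source used here names the build behind the probe sets.

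Values were used as deposited, on the scale log2(intensity + 22.4), the added constant being the 20th percentile of the testis values. Probe sets above the 40th percentile of their own array on 3 or more testis arrays were kept, and the brightest on average stood for its gene. The near-background level, 71.6, is their 40th percentile. A single limma 3.58.1 fit (R 4.3.3, eBayes with trend, 14 residual and 4.94 prior degrees of freedom) held the 6 stage means, with Benjamini-Hochberg adjustment over all genes in each comparison. The fit shares 1 spread per gene over all stages. The script was tested on simulated data. The number of arrays limits the precision. The comparison of pnd2 with gd11 shares arrays with the steps. The members and the gene lists were chosen with earlier results of these data known. Genes named were all members, up to 4 called genes of largest change per list and comparison, a few known partners of the members, and the 3 most like each member. From these, examples are given. Other settings tried were the pseudocount, the filter, quantile normalization, the choice of probe set, eBayes without trend, array weights, fits of 2 stages alone, and leaving out arrays. The comparison of gd18 with gd14 was added to these after seeing the data. The labels name no batch.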

Additional observations from a re-analysis of the deposited data

Results flagged for a closer look

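Within the 5 arrays of gd11, 3 readings stood far from their group, by the gap to the nearest array over the whole range against Dixon's 95% critical value. Prelp read 98.0 on array 17 (gap over range 0.721), Dpt read 23.7 on array 17 (0.79), and Optc read 75.7 on array 16 (0.712). The Dpt reading was near background, and the other readings were just above it. The 9 members and the family members Kera, Epyc, Ecm2, Optc, Chad, Podn and Nyx were looked at in this way. Chance flags about 1 in 20 groups. Arrays 16 and 17 are those with the high neural marker sums given above.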

How the results depend on the processing

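No paired analysis was possible because no replicate number is shared between stages. All 9 members remained called from gd11 to pnd2 under every setting that tested them; a 60th percentile filter left 7 to test, and all 7 were called. No member fell in any comparison under any setting. Counts of members called moved in single steps. For gd12 against gd11 the count of 2 became 1 with a pseudocount of 100, with the arrays of the 2 stages alone and with array weights (1 to 2 when single arrays were left out). For gd14 against gd12 the count of 3 became 5 with array weights and without gd11 arrays 16 and 17 (2 to 5 for single arrays). For gd16 against gd14 the count of 5 became 2 with a pseudocount of 1, and 3 with no filter, with the mean of a gene's probe sets, with every probe set tested and without the eBayes trend, 6 with array weights, and 7 with the arrays of the 2 stages alone and without gd11 arrays 16 and 17 (2 to 5 for single arrays). For gd18 against gd16 the count of 3 became 7 with the arrays of the 2 stages alone and 6 without gd11 arrays 16 and 17 (2 to 4 for single arrays). For pnd2 against gd18 the count of 0 became 2 with the arrays of the 2 stages alone. The cause of these shifts was not tested. The Bgn difference from the newborn turned from -0.13 to 0.15 with quantile normalization of 21 arrays. Of 1093 values of single members under other settings, 997 kept direction and side of the threshold, 17 turned sign while uncalled in both, 56 lost a call, 23 gained one, and 0 calls turned direction. Among those values, a single left-out array always belonged to a stage being compared. Quantile normalization moved the median of all genes by less than 0.1 in each comparison. Signals near background at early stages limit Aspn, Dpt, Omd, Prelp and, at gd11, Ogn.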

Other observations

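The promoter windows of the members differed in composition. GC content was 31.0% in Aspn, and 1.28% of all windows had less. It was 37.7% in Omd, 42.3% in Ogn, 48.7% in Dpt, 51.0% in Fmod, 55.3% in Prelp and 63.7% in Bgn, with a median of 52.7% over all windows. The CCAAT letters were found in Aspn, Fmod and Prelp (37.4% of all windows), the GC box GGGCGG in Bgn alone (35.7%), and the E-box CANNTG in 6 of the 7 members, all but Omd (72.3%), each searched on both strands.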
